A study of Mus musculus with 12 samples.

Results

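Genes that carry out regulated cell death were followed in mouse embryonic fibroblasts given interferon beta (IFNβ), a cytokine that cells release on viral infection. The set has 10 genes, chosen by name: Zbp1, Ripk1, Ripk3 and Mlkl of necroptosis, Casp1, Casp4, Casp12 and Gsdmd of pyroptosis and the inflammatory caspases, and Casp8 and Xaf1 of apoptosis. All probes annotated to these symbols were read, 20 probes for 9 genes, out of 45281 probes on the array; no probe annotated to Ripk1 was among the data analysed here. Of the 20 probes, 14 were detected on at least 3 arrays. They gave 7 tested genes out of 8898, and Casp1 and Xaf1 did not pass that filter.

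The fibroblasts, all labelled C57BL/6J, were either Ulk1/2+/+ (wild type, WT) or Ulk1/2-/- (double knockout, DKO). Ulk1 and Ulk2 encode kinases that start autophagy. Cells of each genotype were left untreated or received mouse IFNβ at 2500 IU/ml for 6 h, and each of the 4 groups held 3 samples, 12 arrays in all. The labels state neither whether samples of a group were separate cultures nor how many embryos gave rise to a genotype, so p-values measure only the spread between these samples.

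Several routes of death meet in these genes. In necroptosis ZBP1, a sensor of Z-form nucleic acids, or RIPK1, a kinase of the TNF receptor complex, engages the kinase RIPK3, which phosphorylates MLKL so that it breaches the plasma membrane. In pyroptosis the inflammatory caspases, which include the products of Casp1 and Casp4, cleave gasdermin D, encoded by Gsdmd, whose released fragment forms membrane pores. Caspase 8 starts apoptosis downstream of death receptors and also restrains necroptosis, and XAF1 antagonises the caspase inhibitor XIAP. Several of these genes are known targets of interferon signalling, which acts through STAT and IRF transcription factors on interferon-stimulated response elements (ISRE) and gamma-activated sites (GAS).

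Promoter sequences from RefSeq, build GRCm38.p6, were available for 8 of the 10 genes, from 250 bases before to 50 bases after an annotated start. Those of 3 genes that IFNβ raised in both genotypes are shown 5′ to 3′, so that the letters searched can be set beside the values below. Capitals mark matches to GAS, searched as TTCNNNGAA, which reads the same on both strands.
Mlkl (chr8:111338156-111338455, - strand): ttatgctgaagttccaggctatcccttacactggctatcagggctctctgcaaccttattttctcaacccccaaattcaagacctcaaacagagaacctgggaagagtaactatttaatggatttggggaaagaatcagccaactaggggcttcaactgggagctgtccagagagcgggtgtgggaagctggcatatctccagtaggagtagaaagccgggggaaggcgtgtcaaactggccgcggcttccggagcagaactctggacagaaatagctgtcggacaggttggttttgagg
Casp4 (chr9:5308599-5308898, + strand): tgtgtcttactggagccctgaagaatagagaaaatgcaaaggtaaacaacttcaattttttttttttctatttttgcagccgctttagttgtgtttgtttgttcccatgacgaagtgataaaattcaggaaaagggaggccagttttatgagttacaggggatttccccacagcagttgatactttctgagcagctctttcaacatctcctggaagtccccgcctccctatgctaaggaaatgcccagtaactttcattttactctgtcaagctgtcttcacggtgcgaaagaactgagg
Casp12 (chr9:5345226-5345525, + strand): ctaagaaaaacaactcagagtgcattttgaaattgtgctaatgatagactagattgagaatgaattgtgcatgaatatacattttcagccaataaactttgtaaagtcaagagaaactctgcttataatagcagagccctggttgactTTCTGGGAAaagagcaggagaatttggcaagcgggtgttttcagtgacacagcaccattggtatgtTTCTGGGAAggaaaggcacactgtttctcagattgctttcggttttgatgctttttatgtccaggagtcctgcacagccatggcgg
The Casp12 promoter held 2 GAS matches, both with the letters TTCTGGGAA, at positions -102 to -94 and -36 to -28 counted from the start base as 0. GAS letters were found in 8.3% of the 32851 promoters in the table. No window of Mlkl, Casp4, Casp12, Casp1, Casp8, Ripk3 or Xaf1 held the ISRE letters, searched on both strands as a pair of GAAA half-sites 2 bases apart, which occur in 3.44% of all promoters. A Ripk1 window held both kinds of match. A match describes letters only, and its absence says only that the letters are not in that window. Casp1, Casp4 and Casp12 follow each other on chromosome 9 with no other annotated gene between them.

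IFNβ raised Mlkl, Zbp1 and Gsdmd in both genotypes, by 3.79-fold to 8.05-fold. Casp4 and Casp12 also rose in both, from below detection. Ripk3 and Casp8 did not pass the test in the main model, which did not pair arrays by replicate number. With equal numbers blocked within a genotype, Ripk3 fell in WT and Casp8 rose in DKO cells, as given below. In the main model 5 of the 10 genes rose, 0 fell, 2 did not pass and 3 were not tested, in WT and in DKO cells alike. Over all 8898 tested genes 18.7% passed in WT cells, 8.08% up and 10.7% down, and 11.4% in DKO cells, 6.25% up and 5.16% down (limma with Benjamini-Hochberg adjusted p under 0.05). That split moved with the scaling, from 719 up and 949 down in WT cells to 811 and 587 after cyclic loess, and from 556 and 459 in DKO cells to 597 and 303 after cyclic loess and 475 and 796 after median scaling. Treated arrays lay wholly above untreated ones for 11.8% of genes in WT and 10.8% in DKO cells. Changes below are log2 differences of group means with their SE, each group having 3 arrays, and p-values are adjusted over all tested genes or, for a probe not used for its gene, over all kept probes. Casp4 and Casp12 passed the detection filter only through treated arrays, so their calls follow in part from the filter. The 3 others that rose were detected on all 12 arrays.

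**Figure D1:**
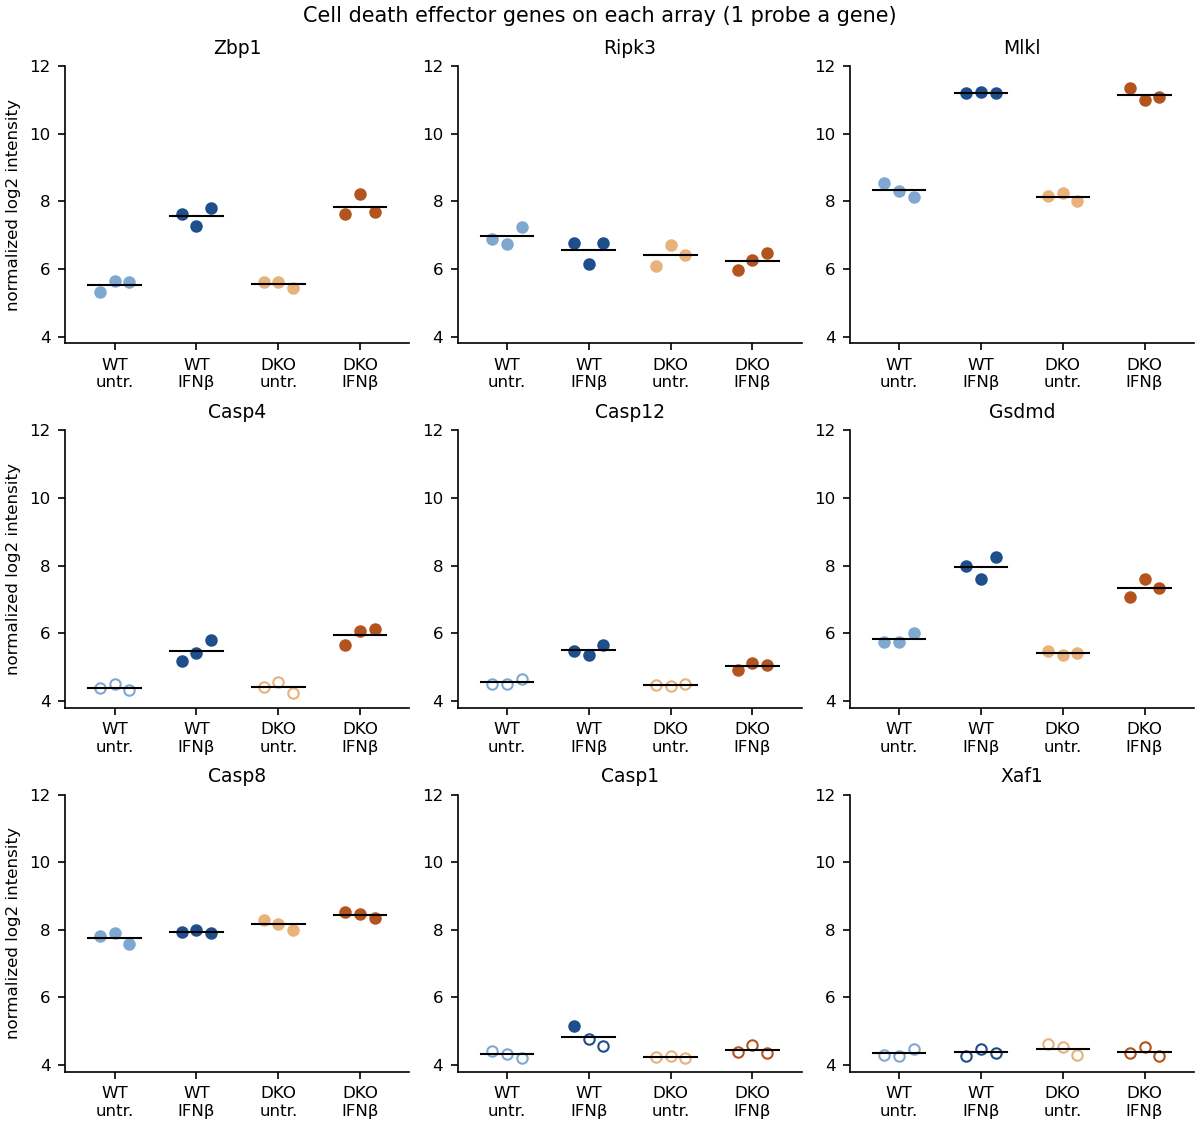
Normalized log2 intensity of 9 genes on each of the 12 arrays, 1 probe a gene, by group; filled points were detected above background, open points were not, and lines are group means. Zbp1, Mlkl and Gsdmd rise with IFNβ in both genotypes, Casp4 and Casp12 leave background only in treated cells, and Casp1 and Xaf1 stay near background. For Casp1 and Xaf1, which were not tested, the probe with the highest mean is drawn.

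Zbp1, the nucleic acid sensor, read 5.33, 5.64 and 5.62 normalized log2 units on the untreated WT arrays and 7.62, 7.27 and 7.81 after IFNβ. In DKO cells it read 5.63, 5.61 and 5.45 untreated and 7.62, 8.22 and 7.69 treated. Treated and untreated arrays did not overlap in either genotype, and the genotypes overlapped in both conditions. The rise was 4.10-fold in WT cells (log2 change 2.04 ± 0.17, limma adjusted p = 6.7e-07) and 4.85-fold in DKO cells (2.28 ± 0.17, limma adjusted p = 2.7e-07).

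The other probes of Zbp1, ILMN_1218547 and ILMN_1228653, were detected on 3 of 3 treated arrays of each genotype and on 0 of 6 untreated arrays. With ILMN_1218547, annotated to AK008179, the treated WT arrays read 8.08, 7.55 and 7.88 and the treated DKO arrays 6.94, 7.16 and 6.98. By this probe Zbp1 rose at least 7.60-fold in WT and at least 4.49-fold in DKO cells (log2 changes 3.28 and 2.47, both ± 0.15). Such a lower bound sets the treated mean against the dimmest signal detected on the untreated arrays. ILMN_1228653 gave at least 2.09-fold in WT and 1.73-fold in DKO cells. All 3 probes rose in both genotypes, and the size of the rise differed from probe to probe. ILMN_1218547 and ILMN_1228653 passed the detection filter only through treated arrays, so their calls follow in part from the filter. Among all kept probes 7.37% rose in WT and 5.72% in DKO cells.

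The kinase gene Ripk3 read 6.90, 6.75 and 7.24 in untreated and 6.76, 6.15 and 6.78 in treated WT cells. It read 6.10, 6.71 and 6.41 in untreated and 5.96, 6.27 and 6.48 in treated DKO cells. Treated and untreated arrays overlapped in both genotypes. Its change was -0.40 ± 0.20 in WT (limma adjusted p = 0.20; 95% interval -0.84 to 0.03) and -0.17 ± 0.20 in DKO cells (adjusted p = 0.67; -0.61 to 0.26). When equal replicate numbers within a genotype were blocked, the WT change passed (-0.40, adjusted p = 0.020), in a fit that called 31.5% of all genes in that comparison. Its single probe was detected on all 12 arrays.

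Mlkl, which encodes the executor that ruptures the membrane, read 8.55, 8.32 and 8.14 on the untreated WT arrays and 11.20, 11.25 and 11.20 on the treated ones. The DKO arrays read 8.16, 8.24 and 8.01 untreated and 11.36, 11.00 and 11.08 treated. Every treated array lay above every untreated array. The rise was 7.34-fold in WT (log2 change 2.88 ± 0.13, limma adjusted p = 6.5e-10) and 8.05-fold in DKO cells (3.01 ± 0.13, limma adjusted p = 1.2e-09). It ranked 64 from the top among the changes of the 8898 genes in WT and 28 in DKO cells. The other Mlkl probe, detected on treated arrays only, gave at least 3.56-fold and at least 3.86-fold (log2 changes 2.26 and 2.17, both ± 0.29). That probe passed the detection filter only through those arrays, so its calls follow in part from the filter.

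Gsdmd, the gasdermin gene, read 5.73, 5.73 and 5.99 in untreated and 7.99, 7.59 and 8.26 in treated WT cells. It read 5.47, 5.36 and 5.42 in untreated and 7.07, 7.59 and 7.35 in treated DKO cells. Treated arrays lay above untreated arrays in both genotypes. The rise was 4.37-fold in WT (log2 change 2.13 ± 0.16, limma adjusted p = 3.0e-07) and 3.79-fold in DKO cells (1.92 ± 0.16, limma adjusted p = 1.3e-06). Its other probes rose too, by 1.72 ± 0.14 and 1.04 ± 0.13 in WT and by 1.33 ± 0.14 and 0.82 ± 0.13 in DKO cells. The smaller of each pair belongs to ILMN_2752790, which was detected on treated arrays only, so its calls follow in part from the detection filter.

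Among the inflammatory caspases, Casp12, which encodes a relative of the products of Casp1 and Casp4, was detected on 6 of 6 treated and 0 of 6 untreated arrays with ILMN_1255816. The treated arrays read 5.48, 5.35 and 5.65 in WT and 4.92, 5.11 and 5.05 in DKO cells, against 4.50 to 4.64 and 4.43 to 4.50 untreated. Casp12 was at least 1.499-fold higher after IFNβ in WT (log2 change 0.95 ± 0.10, limma adjusted p = 1.2e-05) and at least 1.13-fold higher in DKO cells (0.57 ± 0.10, limma adjusted p = 0.0019). The DKO call was lost in the lower of 2 background sets taken alone, where the change was about as large (0.47, adjusted p = 0.29) but rests on 1 array of each DKO group, assumed to vary like the WT groups. Both of its other probes were detected on 0 of 12 arrays.

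Casp1, whose product cleaves gasdermin D and the precursors of inflammatory interleukins, was detected on 1 of 12 arrays, treated WT replicate 1. Its single probe read 5.15, 4.76 and 4.55 on the treated WT arrays and 4.20 to 4.58 on the 6 DKO arrays. Xaf1, with 2 probes, was detected on 0 of 12 arrays, treated or not. With both probes near background, these arrays give no level for Xaf1.

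Casp8, the initiator caspase, read 7.81, 7.91 and 7.58 in untreated and 7.93, 7.98 and 7.89 in treated WT cells. It read 8.30, 8.18 and 8.00 in untreated and 8.51, 8.46 and 8.34 in treated DKO cells. The treated DKO arrays lay above the untreated ones without overlap, and the WT arrays overlapped. The change was 0.17 ± 0.11 in WT (limma adjusted p = 0.33) and 0.28 ± 0.11 in DKO cells (limma adjusted p = 0.15; 0.040 with that replicate block, a fit that called 21.6% of all genes). The other Casp8 probe gave 0.23 and 0.15, neither called.

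**Figure D2:**
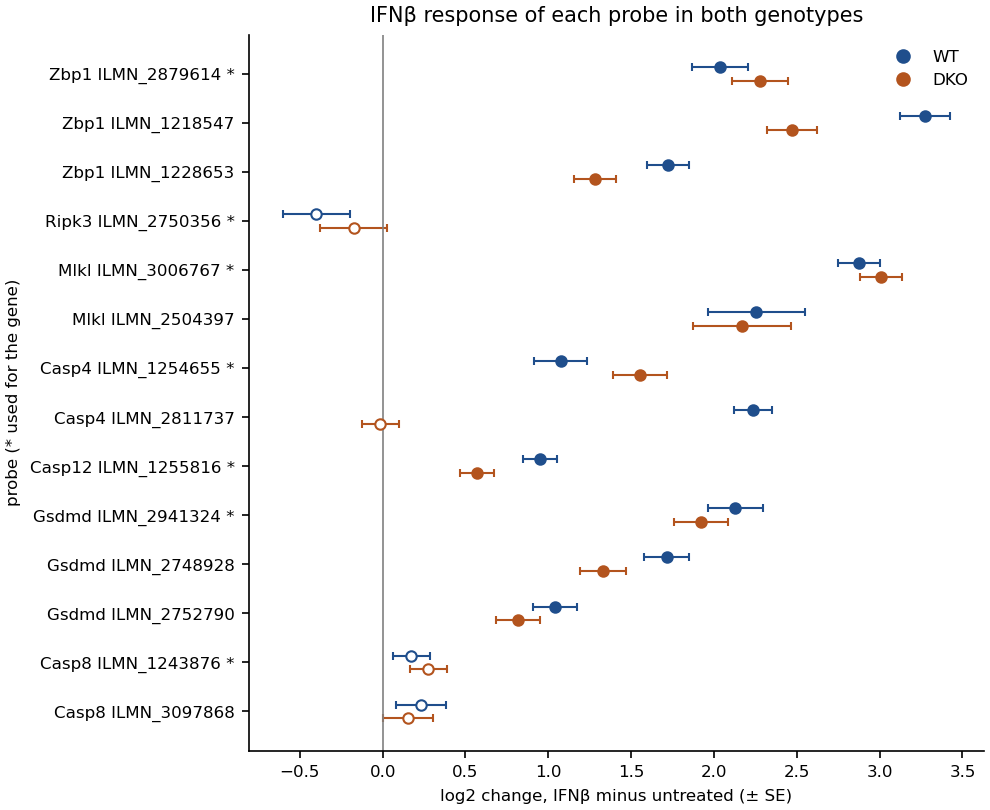
Log2 change with IFNβ (x axis, ± SE, n = 3 arrays per group) of the 14 detected probes of 7 genes in WT and DKO cells; filled points passed the test and asterisks mark the probe used for a gene. Most probes sit close together in both genotypes. Casp4 probe ILMN_2811737 rose by 2.23 in WT cells and read -0.01 in DKO cells.

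Probes of Casp4 disagreed about the genotypes. The gene encodes the caspase that responds to bacterial lipopolysaccharide in the cytosol. The probe with the highest mean, ILMN_1254655, was detected on 6 of 6 treated and 0 of 6 untreated arrays. It read 5.19, 5.41 and 5.80 in treated WT and 5.66, 6.07 and 6.14 in treated DKO cells, and 4.24 to 4.55 on the untreated arrays. By this probe Casp4 was at least 1.47-fold higher after IFNβ in WT (log2 change 1.07 ± 0.16, limma adjusted p = 3.0e-04) and at least 2.14-fold higher in DKO cells (1.55 ± 0.16, limma adjusted p = 1.1e-05).

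The probe ILMN_2811737, also annotated to Casp4 and to the same transcript NM_007609, read 6.75, 6.47 and 6.30 in treated WT cells. On the treated DKO arrays it read 4.23, 4.23 and 4.19, close to the untreated arrays of both genotypes (4.20 to 4.32). Before normalization the treated WT arrays stood at 166.1, 147.0 and 172.2 intensity units and the 9 others between 81.0 and 92.8. The probe was detected on 3 of 3 treated WT arrays and on 0 of the 9 others. By this probe Casp4 rose at least 3.03-fold in WT cells (log2 change 2.23 ± 0.11, limma adjusted p = 2.7e-09) and was below background in DKO cells with or without IFNβ. The third probe, ILMN_2811746, was detected on 0 of 12 arrays. Where these probes lie in the transcript, and whether the WT and DKO cells, both labelled C57BL/6J, differ in sequence under them, was not analysed here, so the values are those of the probes.

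The difference between the genotypes in the IFNβ response, DKO minus WT, was tested directly. With ILMN_2811737 it was -2.25 ± 0.16 (SE, 3 arrays in every group, limma adjusted p = 7.8e-06 over 15856 probes, of which 0.587% passed with a smaller rise in DKO). The probe passed the detection filter only through the treated WT arrays, where it was high, so the filter selected for this pattern and the share of 0.587% is no gauge of it. With no filter on dim probes the difference was -2.25 (limma adjusted p = 4.0e-05 over all probes). It passed under all 23 alternatives run for it, from -2.35 to -0.91, the smallest with the authors' log2 values. With ILMN_1254655 the same difference was 0.48 ± 0.23 in the opposite direction and did not pass (limma adjusted p = 0.56; 95% interval -0.01 to 0.97).

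**Figure D3:**
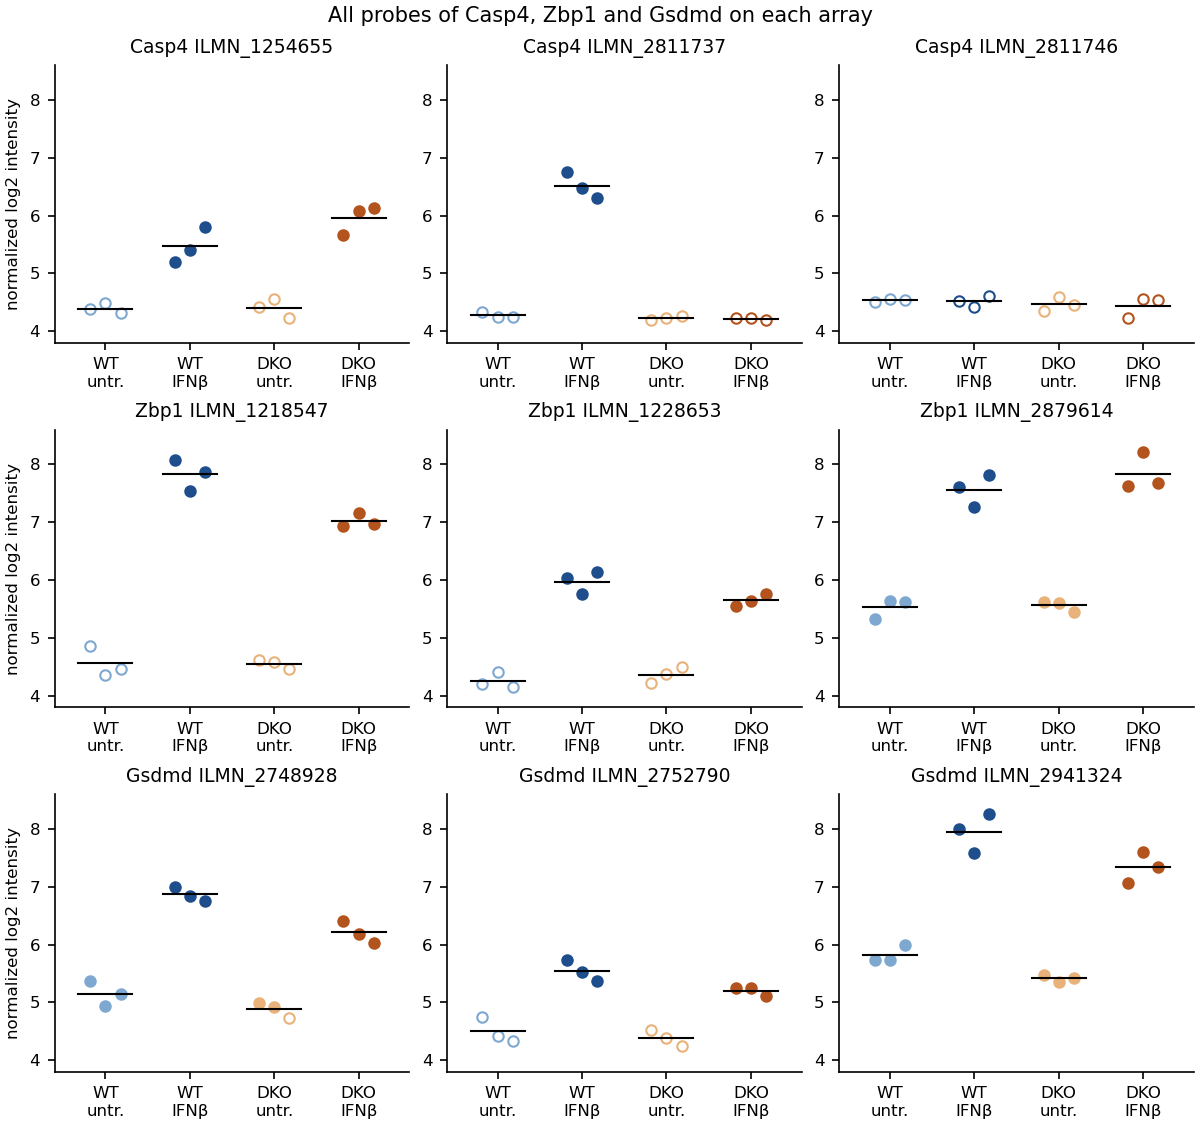
Normalized log2 intensity on each array of all 3 probes of Casp4 (top), Zbp1 (middle) and Gsdmd (bottom), by group; filled points were detected, open points were not, and lines are group means. Casp4 probe ILMN_2811737 stands above background on the 3 treated WT arrays only, while ILMN_1254655 rises in both genotypes. Zbp1 probe ILMN_1218547 is lower in treated DKO than in treated WT cells and ILMN_2879614 is not. For ILMN_1228653 the same difference is -0.32, not called.

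For the 7 tested genes, each read from the probe with its highest mean, 0 passed the test of a different IFNβ response between the genotypes (limma; 1 at an unadjusted p under 0.05), where 1.05% of all tested genes passed, 0.303% with a larger and 0.742% with a smaller response in DKO cells. The interval of the difference leaves room for moderate effects in both directions. It was -0.25 to 0.51 for Mlkl (estimate 0.13 ± 0.18), -0.27 to 0.76 for Zbp1 (0.24 ± 0.24) and -0.71 to 0.29 for Gsdmd (-0.21 ± 0.23). Casp12 had -0.38 ± 0.14 (-0.69 to -0.07, limma adjusted p = 0.39 over all genes), Ripk3 0.23 ± 0.29 and Casp8 0.10 ± 0.16. With the Zbp1 probe ILMN_1218547 it was -0.81 ± 0.21 (limma adjusted p = 0.15), which passed under the replicate block within genotype (adjusted p = 0.0081) and without untreated WT replicate 1 (-0.95, adjusted p = 0.043). Of the 7 probes not used for a gene, 1 passed, Casp4 ILMN_2811737.

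Between the genotypes without IFNβ, Casp8 was higher and Ripk3 lower in DKO cells. Of the 10 genes 1 was higher and 1 lower, 5 did not pass and 3 were not tested. Of all tested genes 33.9% passed, 15.9% higher and 18% lower, so the members' count is near that background. Casp8 was 1.32-fold higher (log2 difference 0.40 ± 0.11, limma adjusted p = 0.014), with DKO arrays wholly above WT arrays, as for 20.7% of genes. Its other probe gave 0.43 ± 0.15 (limma adjusted p = 0.043; 14.7% of kept probes were higher), a call that 10 of 23 alternatives ended. The Casp8 call was lost without untreated WT replicate 3 (0.31, adjusted p = 0.062) or untreated DKO replicate 1 (0.33, adjusted p = 0.057), and in the lower background set alone (0.45, adjusted p = 0.091). Ripk3 was 1.47-fold lower (-0.55 ± 0.20, limma adjusted p = 0.049), with no overlap between the genotypes, as for 25.1% of genes, and 10 of 24 alternatives ended the call, leaving out any of 6 single arrays among them. Those 6 were untreated WT replicates 1 and 3, treated WT replicate 1, untreated DKO replicates 1 and 3 and treated DKO replicate 2, with adjusted p from 0.055 to 0.17. Zbp1 and Mlkl differed by 0.03 ± 0.17 and -0.20 ± 0.13, and Gsdmd by -0.40 ± 0.16 (adjusted p = 0.075), which passed in 5 of 24 alternatives. Those were the background set as a block (-0.49, adjusted p = 0.0070), the higher set alone (-0.60, adjusted p = 0.017), the replicate block over all arrays (adjusted p = 0.049), and the fits without treated WT replicate 2 or 3 (adjusted p = 0.039 and 0.047).

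After IFNβ, Casp8 stood higher in DKO cells, and Gsdmd and Casp12 stood lower. Of the 10 genes 2 were called higher and 2 lower, 3 did not pass and 3 were not tested. Among all tested genes 31.8% passed, 15.3% higher and 16.5% lower, a split that moved from 1362 and 1469 genes to 1073 and 1920 after median scaling. Casp8 was 1.42-fold higher (0.50 ± 0.11, limma adjusted p = 0.0036), with no overlap between the genotypes, as for 20.3% of genes. The other Casp8 probe was not called here (0.35 ± 0.15, limma adjusted p = 0.097), and its arrays overlapped. Gsdmd was 1.53-fold lower (-0.61 ± 0.16, limma adjusted p = 0.012), with arrays that just overlapped, at 7.59 in each genotype, and the call was lost without treated WT replicate 3 (-0.45, adjusted p = 0.051). Its probe ILMN_2748928 gave -0.66 ± 0.14 (limma adjusted p = 0.0025; 14.3% of kept probes were lower) and ILMN_2752790 gave -0.34 ± 0.13, not called. Casp12 was 1.38-fold lower (-0.47 ± 0.10, limma adjusted p = 0.0032), again with no overlap, as for 22.8% of genes, a call lost in the lower background set alone at a like size (-0.49, adjusted p = 0.063), again on 1 DKO array.

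After IFNβ the called direction differed between the probes of Casp4, and of the Zbp1 probes 1 was called. Casp4 was 1.41-fold higher in DKO cells with ILMN_1254655 (0.49 ± 0.16, limma adjusted p = 0.032), with overlapping arrays and a call that 11 of 23 alternatives ended, among them the authors' log2 values (0.20, adjusted p = 0.060). The arrays whose removal ended it were treated WT replicates 1 and 2 and treated DKO replicates 2 and 3, with adjusted p from 0.090 to 0.15. With ILMN_2811737 Casp4 was at least 2.95-fold lower in DKO cells (-2.29 ± 0.11, limma adjusted p = 2.9e-09). Zbp1 did not differ past the threshold with the probe used for the gene (0.28 ± 0.17, limma adjusted p = 0.24), was lower with ILMN_1218547 (-0.81 ± 0.15, limma adjusted p = 0.0011) and gave -0.32 ± 0.13 with ILMN_1228653 (adjusted p = 0.072). Mlkl differed by -0.07 ± 0.13 (95% interval -0.34 to 0.20) and Ripk3 by -0.33 ± 0.20, neither called.

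**Figure D4:**
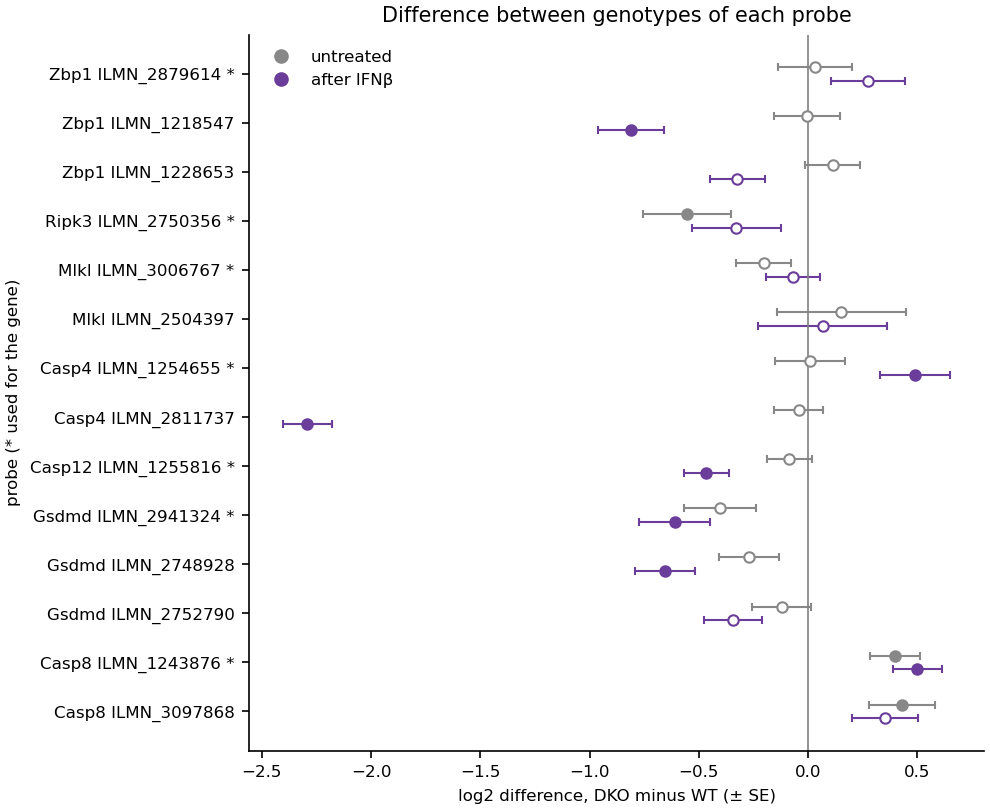
Log2 difference DKO minus WT (x axis, ± SE, n = 3 arrays per group) of the 14 detected probes, untreated and after IFNβ; filled points passed the test and asterisks mark the probe used for a gene. Both Casp8 probes sit above 0, all Gsdmd probes below 0, and the Casp4 probes lie on opposite sides after IFNβ, at 0.49 and -2.29.

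The groups were checked for the targeted genes and for other cells. All probes of Ulk1 and Ulk2 were detected on 6 of 6 WT and 0 of 6 DKO arrays. The Y-linked gene Eif2s3y averaged 8.14 in untreated WT and 4.31, below detection, in untreated DKO cells, and Xist 4.29 and 7.30, so genotype and sex of the cells cannot be told apart in any comparison of genotypes. Of 12 leukocyte markers with a probe, 10 were detected on no array, among them Ptprc, Itgam, Csf1r and Tyrobp, and Cd14 and Cd3e were detected on all. The list's summed level, in normalized intensity units, lay at 130.1 to 143.7 in untreated and 106.0 to 120.1 in treated WT cells, and at 152.3 to 205.6 and 147.5 to 186.2 in DKO cells, so every DKO array lay above every WT array. Cd3e was higher in DKO cells by 1.28 ± 0.14 untreated and 1.25 ± 0.14 after IFNβ. Cd14 went the other way, at -0.69 ± 0.13 untreated (called lower) and -0.14 ± 0.13 after IFNβ (not called). Of 15 fibroblast markers 14 were detected on every WT array and 12 on every DKO array, with sums from 19734 to 24322. Pdgfra and Dcn were detected in WT cells only, so their calls between genotypes follow in part from the detection filter. Of the 14 fibroblast markers tested, 3 were called higher and 5 lower in DKO cells untreated, and 3 higher and 6 lower after IFNβ. Those called higher were S100a4, Pdgfrb and Fbln2 in both conditions. Those called lower were Pdgfra, Dcn, Thy1, Twist1 and Col1a2 in both conditions, and Col3a1 after IFNβ. The other Col3a1 probe gave -0.18 after IFNβ, not called. Other Fbln2 probes disagreed in direction. ILMN_2626153 was called lower in DKO cells (-0.73 untreated and -0.59 after IFNβ) and ILMN_3132949 higher (0.99 and 1.17). The epithelial list summed to 33.3 to 49.3 in WT and 217.1 to 309.1 in DKO cells, and Epcam, Esrp1, Krt5 and Krt14 were detected on no array. Krt19 was detected on all 6 DKO arrays, Krt18 on 3 and Krt8 on 2 of the 3 untreated DKO arrays, and none of these on a WT array. Cdh1 was detected on 2 of 3 treated WT and 2 of 3 untreated DKO arrays. It differed between genotypes by 0.25 ± 0.17 untreated and -0.14 ± 0.17 after IFNβ, neither called. Krt18 was higher in DKO cells by 0.77 ± 0.12 untreated and 0.48 ± 0.12 after IFNβ, below detection in both genotypes in the latter. Krt18 passed the detection filter only through the untreated DKO arrays, so its calls follow in part from the filter. Of 7 endothelial markers, Kdr was detected on 1 array and the others on none. The part of these differences in the genotype results was not tested, and fewer cells of a type cannot be told apart from less RNA per cell. Median intensity parted the arrays into 2 background sets of 6, at 86.5 to 87.9 and 97.5 to 99.7 units, and the lower set held 2 arrays from untreated and treated WT cells alike but 1 from either DKO condition.

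Other genes of the same death pathways were read from 5 lists, whose counts stand beside the shares of all tested genes called in WT (18.7%) and DKO cells (11.4%) after IFNβ and between genotypes untreated (33.9%) and treated (31.8%). Of 22 genes of the TNF receptor complex and its necroptosis branch, 21 were tested, of which 2 rose and 1 fell in WT cells and 2 rose and 0 fell in DKO cells, with median changes of 0.03 and -0.01 beside -0.08 and -0.07 over all tested genes. Rnf31, the catalytic subunit of the linear ubiquitin ligase, rose by 0.92 ± 0.11 in WT and 0.65 ± 0.11 in DKO cells, and the TNF receptor gene Tnfrsf1b by 0.59 ± 0.10 in WT cells. Rbck1, of the same ligase, rose by 0.44 ± 0.12 in DKO cells, and the kinase adaptor gene Tab1 fell by 0.33 ± 0.10 in WT cells. The other kept Tab1 probes gave -0.16 and -0.23 in WT cells, neither called. Between untreated genotypes 3 were higher and 5 lower in DKO cells, including Tnfaip3, which restrains NF-kB, at 1.24 ± 0.18, and after IFNβ 4 were higher and 3 lower. Both counts are near the shares of all genes.

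Of 23 symbols listed for inflammasomes and pyroptosis, 18 were on the array and only 4 were tested, of which 2 rose and 1 fell in WT cells and 1 rose in DKO cells, too few to set against a share. Il18, a cytokine that inflammatory caspases mature, was at least 3.03-fold higher after IFNβ in WT cells and rose by 1.55 ± 0.17 in DKO cells, from detection on 1 of 3 untreated arrays. Without its treated arrays Il18 would not have passed the detection filter, so its calls follow in part from the filter. Txnip, an arrestin-like binder of thioredoxin, rose by 0.69 ± 0.13 in WT cells and changed by -0.07 ± 0.13 in DKO cells. The difference of these Txnip changes was -0.76 ± 0.19 (limma adjusted p = 0.094), and its other probe gave -0.88 (adjusted p = 0.0081). The gasdermin gene Gsdme fell by 0.55 ± 0.15 in WT cells and stood lower in DKO than in WT cells by -1.93 ± 0.15 untreated and -1.52 ± 0.15 after IFNβ (limma adjusted p = 3.3e-07 and 3.4e-06), with detection on 1 of 3 treated DKO arrays. Between genotypes 1 of the 4 was higher and 1 lower in DKO cells untreated, and 0 were higher and 1 lower after IFNβ.

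Death receptor genes and their ligands numbered 13 on the array and 8 tested, of which 2 rose and 1 fell in each genotype, beside 18.7% of all genes called in WT and 11.4% in DKO cells. Daxx, a death-domain-associated nuclear protein gene, rose by 2.76 ± 0.12 in WT and 2.22 ± 0.12 in DKO cells. Tnfsf10, which encodes the death ligand TRAIL, was at least 1.20-fold higher in WT and 1.10-fold higher in DKO cells, where 2 of 3 treated arrays detected it, and its other probe rose too (1.13 and 0.58). The probe used for Tnfsf10 passed the detection filter only through treated arrays, so its calls follow in part from the filter. The TRAIL receptor gene Tnfrsf10b fell by 0.64 ± 0.11 in WT cells with the probe used for it. Its other kept probes gave 0.05, 0.19 and -0.22 there, none called. The gene that fell in DKO cells was the death receptor gene Tnfrsf21, by 0.58 ± 0.14. Between genotypes 2 of the 8 were higher and 2 lower in DKO cells untreated, where 33.9% of all genes passed. After IFNβ 1 was higher and 1 lower, where 31.8% passed.

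In the BCL2 family, which sets the mitochondrial threshold for apoptosis, 13 of 20 genes on the array were tested, of which 2 rose and 2 fell in WT cells and 0 rose and 1 fell in DKO cells, again beside 18.7% and 11.4% of all genes. The pore-former gene Bak1 rose by 0.63 ± 0.10 and Bid, a substrate of caspase 8, by 0.50 ± 0.11 in WT cells, while Bok fell by 0.65 ± 0.14. The other kept Bok probe gave -0.34 in WT cells, not called. Pmaip1 fell by 0.43 ± 0.14 in WT cells. It was detected on 2 of 3 untreated and 0 of 3 treated WT arrays, so both levels lie near background. Bcl2 fell by 0.83 ± 0.22 in DKO cells, and its other probes gave -0.70 (called) and 0.06 (not called). Without IFNβ, DKO cells had 6 of the 13 genes higher and 1 lower, where 15.9% of all genes were higher and 18% lower, and the survival gene Bcl2l1 differed by 0.99 ± 0.13. After IFNβ 4 were higher and 1 lower, where 15.3% and 16.5% of all genes were. Of 9 tested genes of the apoptosome, other caspases and their inhibitors, 1 rose and 2 fell in WT cells, and 0 passed in DKO cells (limma; 2 at an unadjusted p under 0.05), beside 18.7% and 11.4% of all genes. In WT cells Cycs, which encodes cytochrome c, rose by 0.42 ± 0.10, and Diablo, which encodes its partner in release, fell by 0.39 ± 0.09. The other kept Cycs probes gave 0.32 and 0.32 in WT cells, neither called. Between genotypes 1 of the 9 was higher and 1 lower in DKO cells untreated, where 33.9% of all genes passed. After IFNβ 0 were higher and 3 lower, where 31.8% passed. Diablo was lower in both conditions, at -0.94 ± 0.09 and -0.65 ± 0.09. In none of the 5 lists did a gene's response differ between the genotypes past the threshold with the probe used for it.

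The genes whose pattern was most like each tested member over the 12 arrays are given as a description, since all arrays share the same 4 groups. For Mlkl they were Myd88 and Tap2 (Pearson r of 0.996 and 0.995), for Zbp1 Phf11a and Nmi (0.989 and 0.988), and for Gsdmd H2-Q7 and Pnpt1 (0.989 and 0.986). Casp12 was most like Vsig2 and Gsdmd (0.981 and 0.978), and Casp4 like Tgtp1 and Upp1 (0.974 and 0.972). Casp8 was most like Mfsd2a and Clasp2 (0.972 and 0.960), and Ripk3 like Vdac2 and Mdh2 (0.942 and 0.929).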

How the data were processed

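Illumina mouse bead arrays measured labelled cRNA made from total RNA, per the labels. The deposited intensity values are linear, with no background subtracted. The deposited detection p-values move in steps of 1 in 936, the resolution that the negative controls give. The log2 values of the second table deposited by the authors follow log2 of the intensities and share their quantiles across arrays, and no source used here names the software. Probes were named through GEO's platform annotation and RefSeq, 34885 to 1 gene, 18 to several and 10378 to none.

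Intensities were background-corrected with normexp from the detection p-values (offset 16), quantile-normalized and put on the log2 scale (neqc, limma 3.58.1, R 4.3.3, with the package data.table at 1.17.8). A probe was kept where 3 or more arrays had a detection p under 0.01, which left 15856, and each of 8898 genes was read from its named probe with the highest mean. Other probes were tested in a fit over all kept probes. A limma model of 4 group means gave 5 contrasts, with 8 residual and 5.56 prior degrees of freedom. The gene-level model was tested on simulated data for the IFNβ contrast in WT cells. The array number limits the precision.

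Within a genotype, same-numbered arrays deviated together from their group means (r 0.34 to 0.64), and all 6 of these pairs also shared a background set. Unequal numbers in the same set had r of 0.06 to 0.25 there, so the numbers were read as pairing arrays within a genotype. The part of the background set in these values was not tested. The main model left this pairing out, and fits with it are given as alternatives. Across genotypes, equal numbers had r of -0.38 to -0.28 in unlike background sets and 0.34 to 0.45 in like sets. Unequal numbers in like sets had r of 0.31 to 0.43, so arrays were not paired there. Members, lists and tests were chosen with earlier results of these data known. Named genes were the members, Ulk1 and Ulk2, up to 2 called rises and 2 called falls with the largest change per companion list and contrast, and the 2 most alike genes per member.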

Additional observations from a re-analysis of the deposited data

Results flagged for a closer look

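Casp4 probe ILMN_2811737 responded differently to IFNβ in the 2 genotypes, by a test of the difference itself. The response in DKO minus that in WT cells was -2.25 ± 0.16 on the log2 scale (SE, 3 arrays in every group, limma adjusted p = 7.8e-06 over all kept probes). It was higher after IFNβ on 3 of 3 WT arrays and stayed below background on 3 of 3 DKO arrays. The probe passed the detection filter only through those 3 treated WT arrays, so the filter selected for this pattern. With no filter on dim probes the difference was -2.25 (limma adjusted p = 4.0e-05 over all probes). Another Casp4 probe, ILMN_1254655, rose in both genotypes, and the cause of the disagreement was not tested.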

How the results depend on the processing

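Single results for the 7 tested genes over 5 comparisons were recomputed under each alternative, 851 values in all, of which 814 kept their direction and their side of the threshold (or did not pass in either case), 27 no longer passed, 10 newly passed and 0 reversed. For the 7 other detected probes, recomputed by alternatives chosen after their values were seen, 772 kept theirs, 12 no longer passed, 12 newly passed and 0 reversed. The number of members called stayed at 5 for IFNβ in WT and in DKO cells and at 0 for the interaction without any single array. With genes detected on all 12 arrays only, which leaves out Casp4 and Casp12 by construction, it was 3 in each genotype and 2 between genotypes after IFNβ. Between untreated genotypes it was 1 in place of 2 after median scaling, after cyclic loess, with no filter on dim probes, with all kept probes fitted and in the lower background set alone, where the count after IFNβ was 2 in place of 4. Leaving out single arrays gave 0 to 3 untreated, the 0 without untreated WT replicate 3 or untreated DKO replicate 1, and 3 to 4 after IFNβ. With same-numbered arrays as a replicate block within genotype, 6 members were called in each genotype (5 higher and 1 lower in WT), and with the number as a block over all arrays 3 in untreated genotypes, Gsdmd being the one added; these pairing fits changed no member call beyond those given here and beside the results. The count over all genes moved more, in WT cells from 1668 (18.7%) to 2611 with the background set as a block, 2804 with the replicate block within genotype and 809 in the higher background set alone. In DKO cells it moved from 1015 to 1718, 1923 and, in the lower set, 307, and for the interaction from 93 to 201, 254 and 28. It was 153 for the interaction with the number as a block over all arrays, 54 in the higher set and 43 for genes detected on all arrays. The 3013 and 2831 calls between genotypes fell to 1620 and 1655 in the lower set. Dim signal limits Casp1, Xaf1, Casp12 and Casp4, for which most untreated values are background.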
